A study of Equus caballus with 4 samples.

Results

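The dystrophin-glycoprotein complex is a group of proteins at the membrane of the muscle fibre, and 8 of its genes are described here: *DMD*, *UTRN*, *DAG1*, *SGCA*, *SGCB*, *SGCD*, *SNTB1* and *DTNA*. They were chosen by name, as the probes to which the array files give 1 of these symbols, with no measured value in the rule. They account for 10 probes and for 8 of the 24904 genes or transcripts on the array. Differentiating equine satellite cells (ESC), the muscle precursor cells of the horse, came from the semitendinosus muscle. HMB (β-hydroxy-β-methylbutyrate), made in the body from leucine, was added on day 2 of differentiation for 24 h, and control cells stayed in differentiation medium for the same time. RNA of both was hybridised together on 4 two-colour arrays (*n* 4), the HMB-treated cells in Cy5 and the control cells in Cy3 on each array. Because the dyes were not exchanged, the preference of a probe for 1 dye and the effect of HMB cannot be told apart in its ratio.

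The complex ties the actin cytoskeleton inside the fibre to the laminins outside it. Dystrophin binds actin and β-dystroglycan, the sarcoglycans stabilise dystroglycan in the membrane, and the syntrophins and dystrobrevins are carried by dystrophin on its inner face. Loss of dystrophin or of a sarcoglycan leaves the membrane fragile during contraction and causes muscular dystrophy. Some genes of the complex, but not all, are switched on as myoblasts become myotubes. HMB is fed to horses for its effects on muscle, and the arrays ask which genes of these cells respond to it.

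The log2 ratio of HMB-treated over control cells is used throughout, so that -1 stands for a fall to 50% and a negative value for less mRNA with HMB. Testing a probe required that 1 and the same channel exceeded background clearly on each of the 4 arrays, and a gene was represented by its brightest tested probe. The threshold was an adjusted *P* of 0.05 (limma, Benjamini and Hochberg over the 27384 probes tested). Of the 8 genes, 7 were tested, with 8 of the 10 probes, and for these 8 probes both channels were well above background on every array. With HMB, 6 of the 7 genes passed the threshold, 5 of them lower and 1 higher. Among all 15536 genes or transcripts tested, 22.5% passed, 11.6% lower and 10.9% higher. The median ratio of the 7 genes was -0.57, against 0.02 over all of those tested. *DMD*, *DAG1*, *SGCA*, *SGCB* and *SNTB1* were lower in HMB-treated *v.* control cells on all 4 arrays, as were 21.4% of all genes or transcripts tested. *SGCD* was higher on all 4 arrays. *UTRN* did not pass. With ratios centred on the median of all spots without lowess, the median of the tested probes was 0.15 and that of the 7 genes -0.34. Of the 7 genes 5 then passed, while 6 passed with centring on the tested probes.

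**Figure D1:**
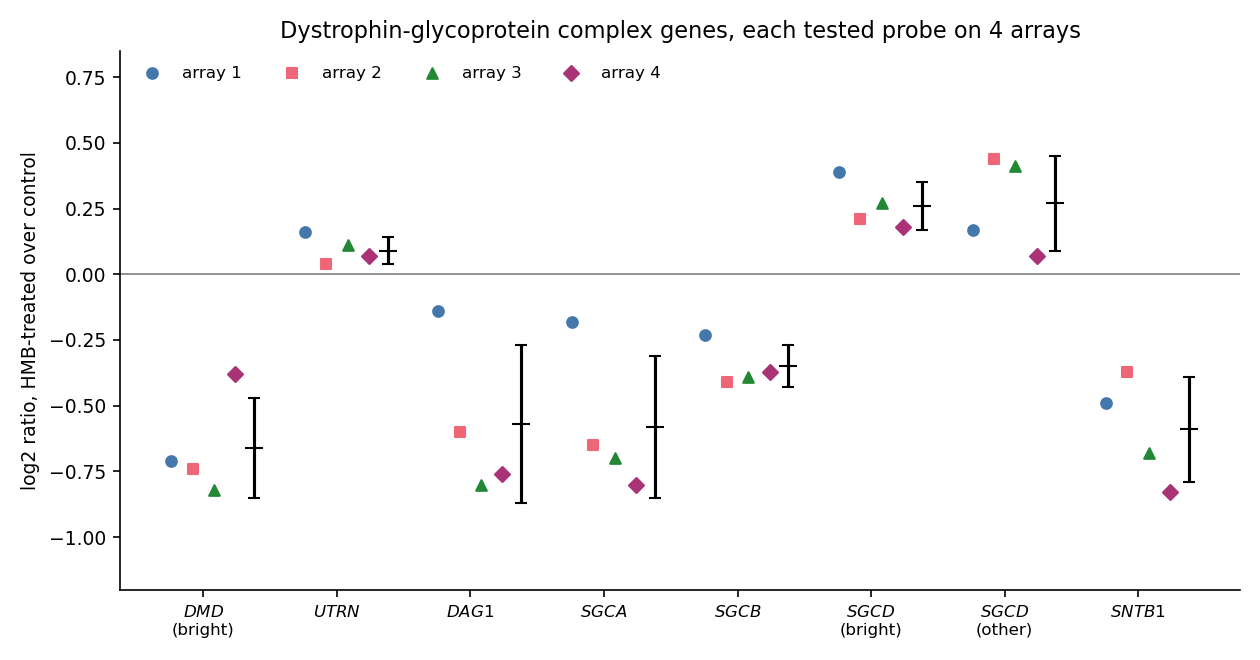
Log2 ratio of HMB-treated over control cells (vertical axis) for the 8 tested probes of the complex, with 1 symbol for each of the 4 arrays, and the mean with its SD as a black bar. The brighter *DMD* probe lies between -0.82 and -0.38, both *SGCD* probes lie above 0 on all arrays, and *UTRN* lies between 0.04 and 0.16, a side of 0 that it does not keep when ratios are centred without lowess.

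Dystrophin itself was read by a pair of neighbouring probes of 1 transcript (ENSECAT00000016766), placed by the files on the unplaced sequence of the horse build EquCab1, plus strand, where 10 bases separate them. The files give both the symbol *DMD* but describe the protein as uncharacterised, and annotation of this build, which would check the name and give the exon, was not available. Both probes are printed 5′ to 3′, since the sentences that follow compare them.

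Brighter *DMD* probe, Un:166967057-166967116: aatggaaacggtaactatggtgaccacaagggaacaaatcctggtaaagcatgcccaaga
Dimmer *DMD* probe, Un:166967127-166967186: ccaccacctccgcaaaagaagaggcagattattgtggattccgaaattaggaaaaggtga

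The signal of the brighter probe in control cells was 96.0, 88.0, 77.4 and 62.8 (arbitrary units, dye-normalised) on arrays 1 to 4. In HMB-treated cells it was 58.9, 52.5, 43.9 and 48.1. Every value with HMB was thus below every control value, and array 4 had both the lowest control signal and the smallest gap. Its log2 ratios were -0.71, -0.74, -0.82 and -0.38, with a mean of -0.66 (SD 0.19, *n* 4, adjusted *P* = 0.00541), a signal 0.632 times that of control cells. Leaving out any 1 array did not end the call of *DMD*, with adjusted *P* values from 0.00530 to 0.0270. Its size depended on the normalisation. The mean was -0.33 with an offset of 50 added to both channels (normexp and loess), -0.34 with ratios centred on all spots without lowess and -0.49 with centring on the tested probes. The call was kept in each of these, with adjusted *P* values of 0.00744, 0.0206 and 0.00389. By mean ratio, 578 of the 15536 genes or transcripts (3.72%) were lower than *DMD*.

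The dimmer probe had signals of 36.3, 32.0, 26.3 and 22.2 in control cells and of 19.1, 18.6, 17.4 and 15.9 in HMB-treated cells. It was well above background on 3 arrays in control cells and on 1 in HMB-treated cells, so it was not tested and no ratio is given for it.

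A further transcript (ENSECAT00000023688) carries no symbol in the files and therefore lies outside the 8 genes, but the study names it dystrophin and selected it for discussion from these same arrays. Its direction is for that reason no independent evidence on dystrophin. It has 5 probes that share 56 bases and are offset by single bases, so that they read 1 site and are not replicates. Averaged over these 5 probes, its ratio was -1.02, -0.97, -1.01 and -1.15 on arrays 1 to 4. Each probe was tested and passed, with a lowest mean of -1.06 and adjusted *P* values from 0.000670 to 0.000899. The ratios of this site varied less between arrays than those of the brighter *DMD* probe, and on array 4, where the latter was nearest to 0, this site was at its lowest. The difference between both transcripts was not tested.

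**Figure D2:**
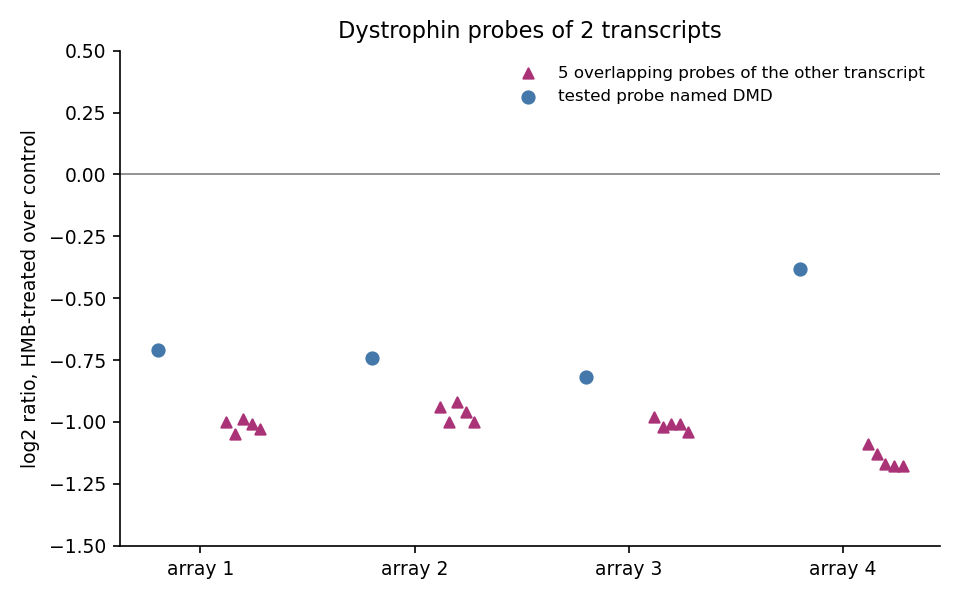
Log2 ratio of HMB-treated over control cells (vertical axis) on each of the 4 arrays for the tested probe named *DMD* (circles) and for the 5 overlapping probes of the transcript without a symbol that the study names dystrophin (triangles). All of them lie below 0 on each array, and the circles and triangles are farthest apart on array 4.

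Utrophin is the autosomal relative of dystrophin and can take its place in the complex. Its probe (chr31:21189843-21190284, minus strand) spans 442 bases of the genome, more than its own 60 bases, and thus crosses at least 1 intron. *UTRN* had signals of 54.4, 49.8, 44.1 and 49.4 in control cells. With HMB they were 60.9, 51.1, 47.5 and 51.8, so that the ranges of both groups overlapped. The log2 ratios were 0.16, 0.04, 0.11 and 0.07, with a mean of 0.09 (SD 0.05, adjusted *P* = 0.287, higher on 4 of 4 arrays), but the sign was not stable, since the mean was -0.15 with ratios centred on the tested probes without lowess. *DMD* was lower than *UTRN* by a mean of -0.76 (SD 0.21) within an array, and on all 4 arrays, but by -0.34 with normexp and loess and with both centrings without lowess. Differences between genes were tested exactly, by reversing the signs of arrays, which has 8 outcomes and cannot reach the threshold (two-sided). *UTRN* gave the smallest *P* possible, 1 in 8, and an adjusted exact *P* = 0.250 over the 6 pairs of *DMD* with another tested member.

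Dystroglycan, encoded by *DAG1*, is cut into an outer part that binds laminin and a membrane part that binds dystrophin. The *DAG1* probe lies at chr16:37643080-37643139, minus strand. Its signal in control cells was 510, 558, 571 and 510 on arrays 1 to 4. With HMB it was 463, 369, 327 and 301. No HMB value reached the lowest control value, and array 1 changed least. The ratios of -0.14, -0.60, -0.80 and -0.76 gave a mean of -0.57 (SD 0.30, adjusted *P* = 0.0202). Without array 2, 3 or 4 the adjusted *P* was 0.0702, 0.0776 and 0.0581 and the call was lost, whereas without array 1 the mean was -0.72 and the call was kept (0.0109).

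**Figure D3:**
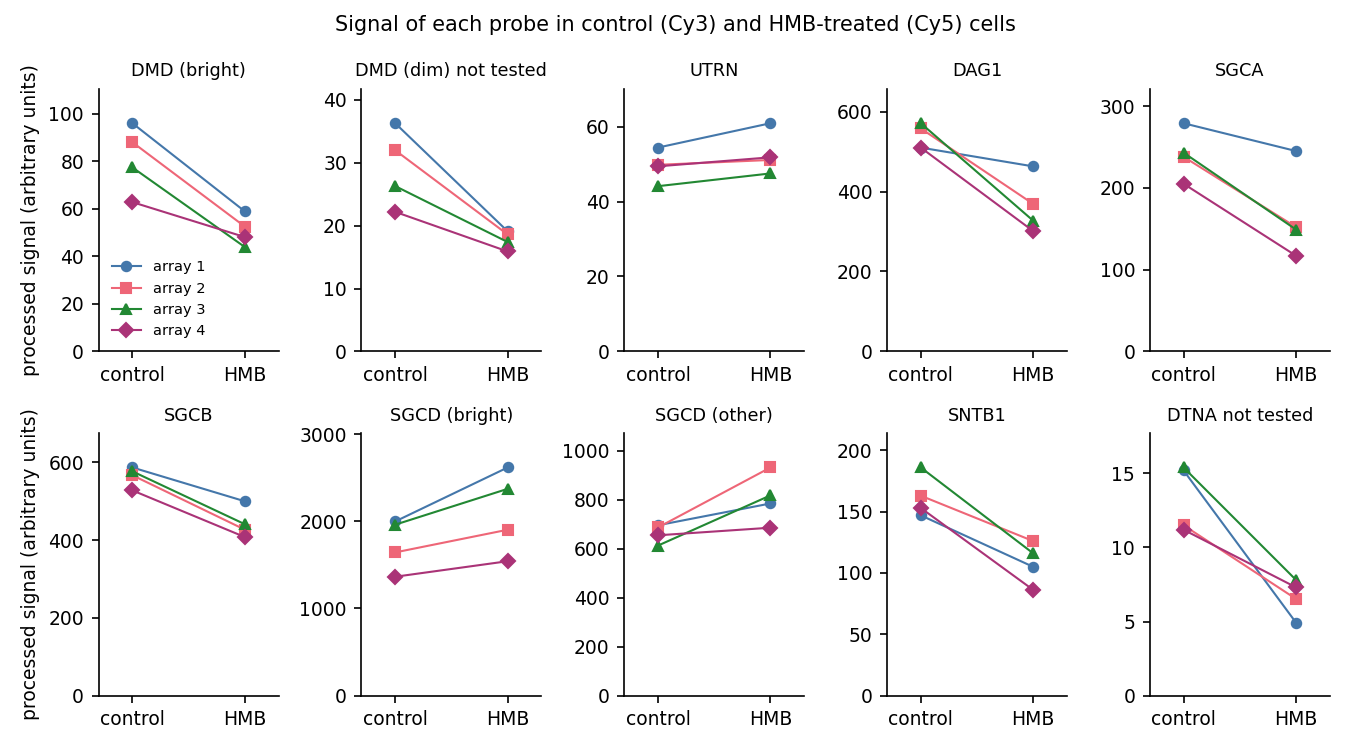
Processed signal (arbitrary units, from 0) of each of the 10 probes in control and HMB-treated cells, a line joining both channels of each of the 4 arrays. The lines of *DMD*, *DAG1*, *SGCA*, *SGCB* and *SNTB1* fall on each array, with the flattest line of *DAG1* and *SGCA* on array 1, while those of *SGCD* climb. Heights are not comparable between panels.

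The sarcoglycans are membrane glycoproteins that assemble together, and loss of 1 usually destabilises the others. *SGCA*, for the muscle-specific α-sarcoglycan, was read by a probe at chr11:24679139-24680201, plus strand, that spans 1063 bases. Its signal was 279, 238, 243 and 205 in control cells. With HMB it was 245, 152, 149 and 117. The ranges overlapped because of array 1, where the HMB signal exceeded most of the control signals. The ratios were -0.18, -0.65, -0.70 and -0.80, with a mean of -0.58 (SD 0.27, adjusted *P* = 0.0156). They ran closely beside those of *DAG1*, both being nearest to 0 on array 1. The adjusted *P* was 0.0601 without array 2, 0.0631 without array 3 and 0.104 with the channels compared without pairing by array.

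*SGCB*, for β-sarcoglycan, was read at chr3:73266382-73269539, plus strand, by a probe that spans 3158 bases. Its ratios were -0.23, -0.41, -0.39 and -0.37, with a mean of -0.35 (SD 0.08, adjusted *P* = 0.0137). Its mean was nearer to 0 than those of *DMD*, *DAG1*, *SGCA* and *SNTB1* and its SD was below theirs, though the differences from the last 3 were not tested. All control signals, from 528 to 587, were above all HMB signals, from 408 to 500. The adjusted *P* was 0.0775 without array 2, 0.0666 without array 3 and 0.111 with ratios centred on all spots without lowess, where the mean was -0.19.

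*SGCD*, for δ-sarcoglycan, was the exception, the only member past the threshold on the higher side. Its pair of probes adjoins on chromosome 14, minus strand, with no base between them, at chr14:21542073-21542132 for the brighter and chr14:21542013-21542072 for the other. Both hold a simple repeat, and 30 bases around it are shown with the repeat in capitals.

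Brighter *SGCD* probe: acctTGTGTGTGTGTGTGTGTGTGTGggcg
Other *SGCD* probe: gtgagtggATATAAATATATATAAATATAT

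In the brighter probe the capitals mark 22 bases of alternating G and T, and in the other a run of 22 bases of A and T alone. The signal of the brighter probe was 1998, 1643, 1961 and 1364 in control cells. With HMB it was 2617, 1903, 2372 and 1542. The ranges of both groups overlapped, since the arrays differed from each other by more than the channels did, but within each array the HMB channel was the higher. Its ratios were 0.39, 0.21, 0.27 and 0.18, with a mean of 0.26 (SD 0.09, adjusted *P* = 0.0334). The other probe gave 0.17, 0.44, 0.41 and 0.07, with a mean of 0.27 (SD 0.18), and did not pass (adjusted *P* = 0.0621). The means of both probes lay close together, with a difference of -0.01 (SD 0.21, exact *P* = 0.875), although their ratios ranked the arrays differently. The call of *SGCD* was lost without array 1, 2 or 3, with adjusted *P* values of 0.0696, 0.119 and 0.128, and when the channels were not paired by array, with 0.438. With ratios centred on all spots without lowess its mean was 0.48.

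Probes with such repeats were then counted over the array, with a limit of at least 16 bases that was chosen after the *SGCD* probes and their values had been seen. A run of alternating G and T, or A and C, of that length was present in 17 tested probes of 8 genes or transcripts, *SGCD* included. Of these 8 genes or transcripts 3 had a probe past the threshold, with 8 of the 17 probes (47.1%), each higher with HMB. Several of these probes read the same gene and do not count separately, and 22.8% of all probes tested passed in either direction. Their median ratio was 0.12. With a limit of 12 bases, 19 of 43 probes passed, again all higher. A run of at least 22 bases of A and T, a limit taken from the *SGCD* probe itself after its values had been seen, was present in 25 tested probes, of which 6 (24.0%) passed, near the share over all probes and each lower with HMB, and their median ratio was -0.09. These counts include *SGCD* itself. The part of the repeat in the ratio of *SGCD* was not tested.

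On the inner face of the membrane, *SNTB1* encodes β1-syntrophin, an adaptor that docks signalling proteins to dystrophin. Its probe (chr9:58574253-58574312, minus strand) gave control signals of 147, 163, 186 and 153. With HMB they were 105, 126, 116 and 86.2. All HMB values were below all control values, and in contrast to *DMD* the ratio was lowest on array 4. The ratios were -0.49, -0.37, -0.68 and -0.83, with a mean of -0.59 (SD 0.20, adjusted *P* = 0.00827). Beside *DMD*, it was the other member whose call survived the loss of any 1 array, at adjusted *P* values from 0.0187 to 0.0392. With ratios centred on all spots without lowess its mean was -0.35 and the call was kept.

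*DTNA*, for α-dystrobrevin, a dystrophin-related protein that binds the syntrophins, could not be measured. Its probe (chr8:48604965-48605024, plus strand) had control signals of 15.2, 11.5, 15.4 and 11.2, well above background on 1 array, and HMB signals of 4.93, 6.53, 7.81 and 7.31, well above background on 0 arrays. No ratio or fold is therefore given for *DTNA*.

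Ordered by mean ratio from the lowest, the members were *DMD*, *SNTB1*, *SGCA*, *DAG1*, *SGCB*, *UTRN* and *SGCD*. The first 4 of these stood close together. *DMD* differed from *SNTB1* by -0.07 (SD 0.36, exact *P* = 0.750), from *SGCA* by -0.08 (SD 0.38, exact *P* = 0.625) and from *DAG1* by -0.09 (SD 0.39, exact *P* = 0.625), each within the spread over arrays. In all 3 cases *DMD* was the lower on arrays 1 to 3 and the higher on array 4, and these 3 differences changed sign with normexp and loess and with ratios centred without lowess. *DMD* was lower than *SGCB* on 4 of 4 arrays, by a mean of -0.31 (SD 0.21, the smallest exact *P* possible), a sign that was lost with normexp and loess (0.04), while the difference was -0.15 with both centrings. It was lower than *SGCD* on 4 of 4 arrays by a mean of -0.93 (SD 0.25, again the smallest exact *P* possible), and by -0.57 with normexp and loess. Over the 6 pairs the adjusted exact *P* was 0.250 for *UTRN*, *SGCB* and *SGCD* and 0.750 for the others.

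The 5 genes whose ratios lay nearest to those of *DMD* over the 4 arrays, among 9485 other tested genes with a symbol, were *FAM107A*, *NR3C2*, *PANX1*, *C1QC* and *MLLT3*. Their root mean square differences from *DMD* were 0.055, 0.057, 0.073, 0.106 and 0.115 on the log2 scale. *NR3C2*, for the mineralocorticoid receptor, had ratios of -0.73, -0.77, -0.73 and -0.45. As these genes were picked for ratios near those of *DMD*, their likeness to it is a description. With normexp and loess *DMD* had -0.33, and the means of *FAM107A*, *NR3C2*, *C1QC* and *MLLT3* were -0.25, -0.58, -0.42 and -0.70. *PANX1*, for a membrane channel, was well above background on 3 arrays and not on array 4 in HMB-treated cells, so its place rests in part on a ratio that was not measured. Within the complex, *SNTB1* (place 216 of 9485), *SGCA* (291), *DAG1* (308) and *SGCB* (356) came nearest to *DMD*, while *UTRN* (5704) and *SGCD* (8138) lay far from it.

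Of 14 genes for other components of the complex 8 were tested, and 1 passed, lower with HMB, a share near the 11.6% over all genes or transcripts. The median of the 8 was -0.28, against 0.02 over all genes or transcripts tested, and -0.07 with ratios centred on all spots without lowess. *CAV3*, for the muscle caveolin, had a mean of -0.31 (SD 0.26, adjusted *P* = 0.0761). *SSPN*, for sarcospan, had -0.25 (SD 0.31, adjusted *P* = 0.175). *SGCE* and *SNTB2*, which many tissues express beside muscle, were at 0.05 and 0.04. These 4 genes were named after their values had been seen. *SGCZ*, *SNTG1*, *SNTG2*, *DTNB*, *DRP2* and *NOS1* were too dim to be tested.

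Dystroglycan binds laminin by a sugar chain, and enzymes that build this chain were listed as 18 genes. Of these 15 had a probe and were tested, and 1 passed lower and 1 higher, where 22.5% of all genes or transcripts passed. The median was -0.03, which turned to 0.07 with ratios centred on all spots without lowess. *GMPPB*, which makes a mannose donor, was higher at 0.35 (SD 0.14, adjusted *P* = 0.0212). In a t-test of each probe on its own, 0 genes of this list passed, with 5 at an unadjusted *P* under 0.05. Without array 3, limma passed 0 as well, with 3 at an unadjusted *P* under 0.05, and *GMPPB* was also lost without array 1 (adjusted *P* = 0.0556). *POMK* and *DPM2* had no probe by these names.

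Among the laminins and other ligands outside the cell, 6 of 14 genes tested passed, all lower, with a median of -0.22. The share that passed lower over all genes or transcripts was 11.6%. *AGRN*, for agrin, a ligand of dystroglycan, had -0.89 (SD 0.45, adjusted *P* = 0.0147), but -0.35 with normexp and loess. With ratios centred without lowess *AGRN* had -0.40 on all spots and -0.55 on tested probes. The laminin α-chain genes *LAMA5* (-0.84), *LAMA3* (-0.67), *LAMA2* (-0.50) and *LAMA1* (-0.42) and perlecan, *HSPG2* (-0.33), also passed, with adjusted *P* values from 0.00426 to 0.0407. *LAMA2*, for the chain of the laminin of the mature muscle basement membrane, was the most even of them at -0.50, -0.54, -0.55 and -0.42. The median of the list turned positive with ratios centred without lowess, to 0.17 on all spots, where 3 genes passed lower and 4 higher, and to 0.02 on the tested probes, where 6 passed lower and 3 higher. With centring on all spots *LAMA2* (-0.27, adjusted *P* = 0.0782), *LAMA1* (-0.27, 0.0585) and *HSPG2* (-0.14, 0.263) did not pass. With normexp and loess *LAMA1* had -0.21. Without 1 array the calls of *AGRN* (array 1, adjusted *P* = 0.0539), *LAMA1* (array 3, 0.0501), *LAMA3* (arrays 1, 2 and 3, 0.0622, 0.0661 and 0.105) and *HSPG2* (arrays 2, 3 and 4, 0.146, 0.0921 and 0.0754) were lost, and without array 4 *LAMA3* had -0.43. Of 4 tested probes of *LAMA3* 1 passed, and with its probes averaged it did not (-0.64, adjusted *P* = 0.0567). *LAMA2* and *LAMA5* were selected for discussion by the study from these arrays and are not independent evidence.

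Of the cytoskeletal and integrin partners, 7 of 14 genes tested passed, all lower, with a median of -0.27, where 11.6% of all genes or transcripts passed lower. With ratios centred without lowess the median was -0.09 on all spots, with 6 lower and 2 higher, and -0.24 on the tested probes, with 7 lower and 1 higher. *DES*, for the intermediate filament desmin, had -0.98 (SD 0.37, adjusted *P* = 0.00683), but -0.46 and -0.61 with these centrings. *ITGB1BP2*, for melusin, a muscle protein that binds the β1-integrin tail, had -0.96 (SD 0.13, adjusted *P* = 0.00117) and was selected by the study from these arrays. *ITGA7*, for the laminin-binding integrin chain of muscle, had -0.86 (SD 0.39, adjusted *P* = 0.0112). *SYNC* (-0.77), *ANK3* (-0.72) and *FLNC* (-0.49), whose products bind dystrobrevin, dystrophin and the sarcoglycans, also passed. So did *GRB2* (-0.21, adjusted *P* = 0.0473), of whose 5 tested probes 2 passed, and 6 genes of the list passed with the probes of each gene averaged. *FLNC* had -0.29 with centring on all spots, and it did not pass without array 2 (adjusted *P* = 0.0557) or array 3 (0.0533). *KRT19* was too dim to be tested, and *ACTG1* and *KRT8* had no probe by these names.

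**Figure D4:**
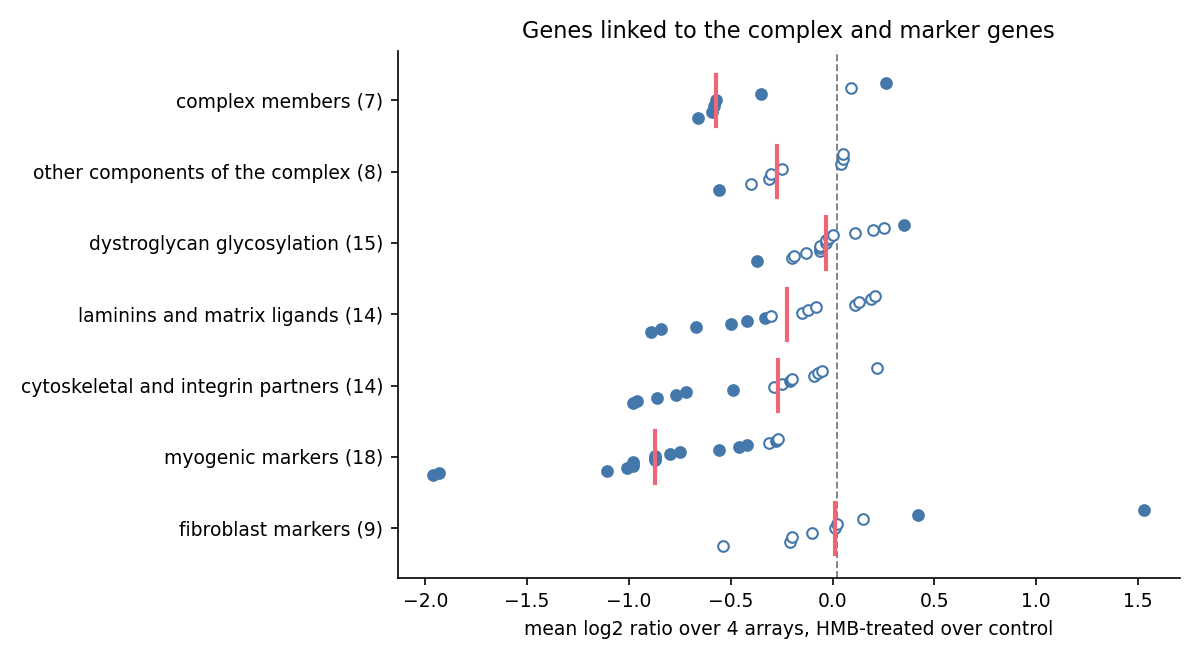
Mean log2 ratio of HMB-treated over control cells over 4 arrays (horizontal axis) for each tested gene of the complex, of the lists of linked genes and of myogenic and fibroblast markers, filled where the adjusted *P* was at most 0.05. The red bar is the median of a list, the dashed line the median of all genes or transcripts tested (0.02), and the number of genes tested follows each name. The complex has its median at -0.57, between those of the other components (-0.28) and of the myogenic markers (-0.87), which are -0.34, -0.07 and -0.40 with ratios centred on all spots without lowess. Centred without lowess, the laminin list has a positive median, as has the glycosylation list with centring on all spots.

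Myogenic markers were counted as well, among them *MYF5*, which the paper describes as high in committed satellite cells and lower once they differentiate. Over all genes or transcripts tested, 11.6% passed lower. Of the 18 myogenic markers tested, 16 were lower in HMB-treated cells and passed, and their median was -0.87. Among them, *MYH2*, was well above background in HMB-treated cells on 2 arrays, and with both channels required 15 of 17 passed. With ratios centred without lowess, 12 passed with a median of -0.40 on all spots, and 16 with -0.55 on the tested probes. Without array 2, 10 of them passed and without array 3, 9. Their medians on arrays 1 to 4 were -0.43, -0.76, -0.99 and -1.26, and those of the 7 complex genes were -0.18, -0.41, -0.68 and -0.38. The summed signal of the 18 genes was 256754, 256112, 277649 and 294229 in control cells and 188130, 134199, 125430 and 113220 in HMB-treated cells. *MYH3*, for embryonic myosin, was the brightest of them and fell by a mean of 1.11 on the log2 scale (SD 0.47, adjusted *P* = 0.00846). *PAX7*, which defines undifferentiated satellite cells, was not well above background. *MYF5* and *MEF2C* in this list were selected by the study from these arrays, and *DES* also stands in the list of partners. Array 1 had the smallest difference for these markers as for *DAG1*, *SGCA* and *SGCB*, whereas *DMD* had its smallest on array 4, where the markers had their largest. In RNA of whole cultures, fewer differentiated cells and less mRNA in each cell cannot be told apart. The part of the lower myogenic markers in the lower ratios of the complex was not tested.

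Markers of other cell types were counted in the same way. Of 9 fibroblast markers tested, 2 passed, both higher: *PDGFRA* at 1.53 (SD 0.47, adjusted *P* = 0.00358) and *FAP* at 0.42 (SD 0.18, adjusted *P* = 0.0185). Among all genes or transcripts tested 22.5% passed, and 10.9% passed higher. The other fibroblast markers did not pass by their brightest probe. *COL1A1* (-0.54), *COL3A1* (-0.21), *COL1A2* (-0.20) and *THY1* (-0.10) were on the lower side, and *DCN* (0.15), *POSTN* (0.02) and *LUM* (0.01) on the higher. Of the tested probes of *COL1A2*, 2 of 9 passed, with means of all 9 from -0.59 to -0.20. For *DCN* 1 of 2 passed, with means of 0.15 and 0.39. Without array 2 or without array 3, 1 of the 9 passed, and without array 1, 1 passed lower and 1 higher. The methods of the study include preplating of the cells against fibroblasts. The median of the 9 was 0.01, but 0.72 and 0.57 with ratios centred without lowess on all spots and on the tested probes, where 6 of them passed and were higher. The summed signal was 380506, 359260, 388297 and 499685 in control cells and 459841, 320573, 340934 and 338770 with HMB, and *COL1A2* was the brightest. *TCF21* was not well above background. Of the smooth muscle and pericyte markers, 1 of 5 tested passed, *MYH11*, lower with HMB. Its signal with HMB was well above background on 3 arrays and not on array 4, so its call rests in part on a ratio that was not measured, and no value is given for it. Their summed signal was 21494, 20841, 15337 and 15048 in control cells and 18903, 17184, 12370 and 6150 with HMB, *ACTA2* was the brightest and *RGS5* was not well above background. Of the leukocyte markers, 1 of 3 tested passed, *PTPRC* at 0.28 (SD 0.13, adjusted *P* = 0.0374), but its probes ranged from -0.48 to 0.37. Their summed signal was 16936, 14946, 17167 and 15624 in control cells and 22094, 16631, 19227 and 16549 with HMB, and *CSF1R*, *ITGAM* and *CD3E* were not well above background. No adipocyte, endothelial or Schwann and neural marker was well above background as the filter asks, so that none was tested. The markers of these types named with a ratio were chosen after their values had been seen. The part of these cell types in the ratios of the complex was not tested.

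The calls of the complex rested on more than the values alone. A t-test on the 4 ratios of each probe on their own was taken from the supplementary workbook, as the methods section names no test. In this t-test, 0 of the 7 members passed after adjustment, although 7 had an unadjusted *P* under 0.05, and limma passed 6. The adjusted *P* of *DMD* was then 0.0746, of *SGCB* 0.0616 and of *DAG1* 0.134. Without array 2 or without array 3, *DMD* and *SNTB1* were the 2 members that passed.

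**Figure D5:**
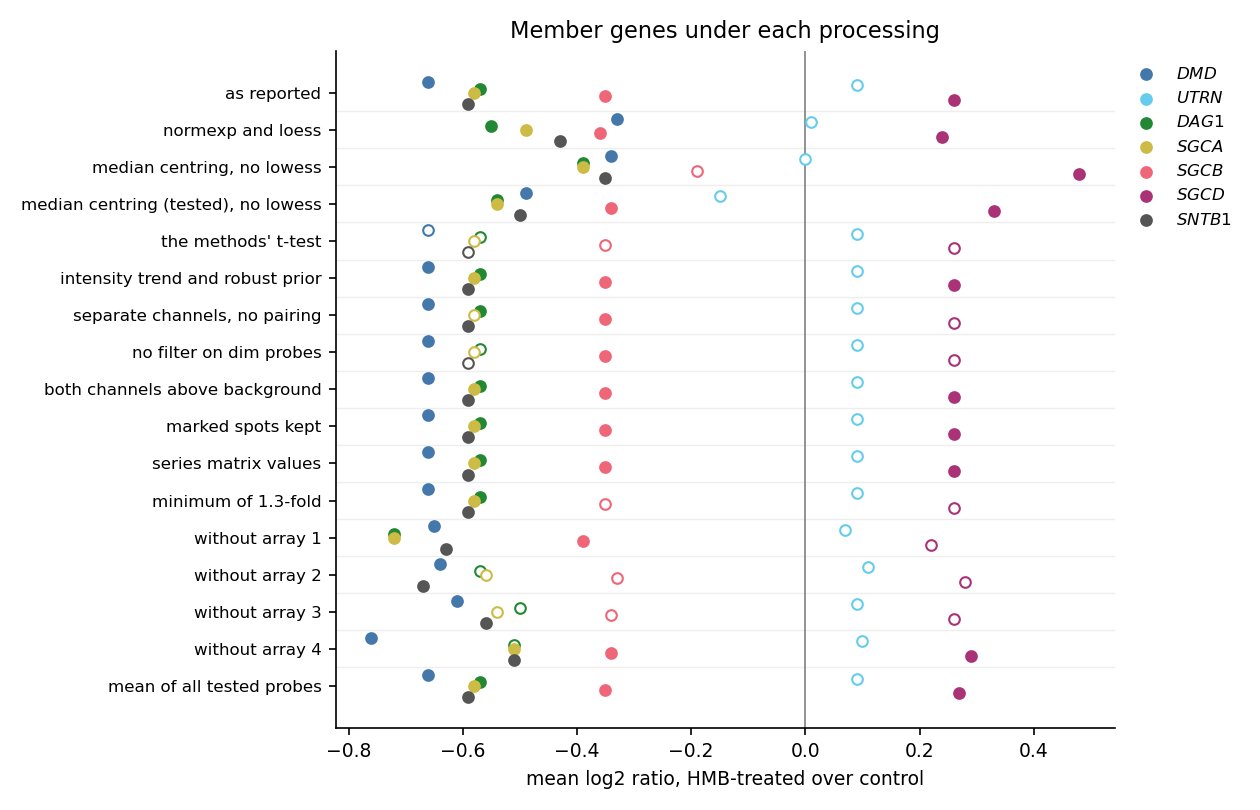
Mean log2 ratio of HMB-treated over control cells (horizontal axis) of the 7 tested genes under each processing (vertical axis), filled where the gene passed the threshold. The 5 genes with a negative ratio and *SGCD* keep their sign under each of these. *UTRN* crosses 0 when ratios are centred without lowess, and no gene is filled in the t-test.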

How the data were processed

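RNA of HMB-treated (Cy5) and control (Cy3) ESC was compared on 4 arrays of 1 slide, with the groups and replicate numbers of the sample titles. The description fields call the cells otherwise, the labels give 50 µg of HMB where the methods give a molar dose, and the colt behind each array is not given in the sources used here. The deposited values are log10 ratios, Cy5 to Cy3, which the authors made by background subtraction and linear and lowess dye normalisation in Feature Extraction. The version read from the file headers, 10.10.1.1, is that of the step that places the grid of spots. It was not compared with the release named in the methods. The deposited intensity values are mean, local background and processed spot signals. The series value table holds the same log10 ratios (largest difference 0), so its scale, centring and direction are known; the medians over tested probes were 0.01, 0.01, 0.03 and 0.02 on the log2 scale.

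Log10 ratios were multiplied by 3.32. The 1417 control spots and the 11, 17, 32 and 15 spots marked non-uniform or outlying were left out of the 43803 others, no spot was saturated, and spots of a probe were averaged. Of 43603 probes, 27384 had 1 channel clearly over background on every array with 3 or more values, and 16219 did not. Each channel lay well above background for between 63.5% and 66.9% of probes, depending on the array, which with 4 arrays limits the precision. Gene names came from the files for 24951 probes, from their descriptions for 45, from the RefSeq gene table for 889 and from aliases for 9, and 17709 kept their accession. The test was that of limma 3.58.1 (R 4.3.3) with an intercept and a moderated variance, also tested on simulated data. Python 3.11.15, numpy 2.4.6, pandas 2.3.3 and matplotlib 3.10.9 were used for the rest.

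Members and lists were chosen with earlier results of these data known, though the rule itself uses names alone. Named are the members, up to 6 genes of each linked list past the threshold, the 5 genes nearest to *DMD* and the genes said to be chosen after their values were seen. Some genes of these lists enter the counts and medians but are not reported here by name. The pairs of *DMD* with other members were planned as 7, and that with *DTNA* was left out once *DTNA* proved too dim, also after adjusted *P* values over 7 had been computed.

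The alternatives for the ratios were normexp with an offset of 50 and loess, and centring of each array on the median of all spots in place of lowess. Those for the test were a t-test (from the supplementary workbook, as the methods section names no test) and an intensity trend with a robust prior. Channels were also compared without pairing by array (no replicate block). Further alternatives were no filter, a filter on both channels, inclusion of marked spots and the series value table. The last were a minimum of 1.3-fold, averaging over the tested probes of each gene, and omission of each array. Centring on the median of the tested probes was added after the results of centring on all spots had been seen, and both are given.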

Additional observations from a re-analysis of the deposited data

Results flagged for a closer look

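The probes of the complex, of the named linked genes and of the genes nearest to *DMD* were searched for an array far from the other 3, by the gap to the nearest array over the whole range, above Dixon's critical value. Of 30 probes, 3 had such an array. Chance gives about 1 in 20 for probes that were not selected. The genes nearest to *DMD*, *NR3C2* among them, were picked for ratios near those of *DMD*, and most linked genes for passing the threshold. The count therefore cannot be compared with chance. *LAMA5* had -0.44 on array 1, against -1.01 to -0.93 on the others. *LAMA1* had -0.62 on array 3, against -0.38 to -0.34. *NR3C2* had -0.45 on array 4, against -0.77 to -0.73. None of the 10 probes of the complex was among them.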

How the results depend on the processing

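The ratios of the 7 tested members kept direction and side of the threshold in 85 of 112 comparisons with an alternative, lost the call in 25 and changed sign in 2. The linked and nearest genes named kept theirs in 260 of 319 and lost the call in 59. Some of these comparisons could not differ, since the series value table holds the same ratios as reported. Alternatives for the test, the filters and the minimum fold use the same ratios too, so they could change a call but not a direction. Averaging over tested probes left the ratio of every member but *SGCD* as it was, and *UTRN* had no call to lose. The counts therefore do not measure how stable the calls are. The sign of *UTRN* changed with centring on all spots (0.00, on the negative side) and on tested probes (-0.15). Centring on all spots moved the median of the tested probes to 0.15, and centring on tested probes gives the ratios relative to that shift. The share of calls that were higher was 49.1% as reported, 78.3% with centring on all spots, 51.1% with centring on tested probes, 34.7% without pairing by array and 36.4% without array 2.

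The number of probes called was 6257 of 27384 as reported and 768 in the t-test. It was 2567 with channels not paired by array, the fit with no replicate block, and 3690 of 43603 with no filter. With a minimum of 1.3-fold it was 3863, and with an array left out between 2573 and 4955. Members called numbered 6 as reported, 0 in the t-test (7 at an unadjusted *P* under 0.05), 2 with no filter and between 2 and 5 with an array left out. *DMD* (-0.66) was lost in the t-test alone. *SNTB1* (-0.59) and *DAG1* (-0.57) were lost in the t-test and with no filter, *SGCA* (-0.58) in both and without pairing, *SGCD* (0.26) in these and with the minimum fold, and *SGCB* (-0.35) in the t-test, with the minimum fold and with centring on all spots (-0.19). *DAG1* was also lost without array 2, 3 or 4, *SGCA* and *SGCB* without array 2 or 3, and *SGCD* without array 1, 2 or 3. With an array left out, means ranged from -0.76 to -0.61 for *DMD*, from -0.72 to -0.50 for *DAG1*, from -0.72 to -0.51 for *SGCA*, from -0.39 to -0.33 for *SGCB* and from 0.22 to 0.29 for *SGCD*.

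Other components past the threshold numbered 1 as reported, 2 with centring on tested probes, 0 in the t-test (1 at an unadjusted *P* under 0.05) and 1 to 3 with an array left out. Glycosylation genes numbered 2, but 0 in the t-test, with no filter and with the minimum fold (5 at an unadjusted *P* under 0.05 in each), 0 without pairing (2 unadjusted) and 0 to 3 with an array left out. Ligands numbered 6, but 1 in the t-test, 3 without pairing, 3 with no filter and 3 to 5 with an array left out. Partners numbered 7, but 1 in the t-test, 4 without pairing, 3 with no filter and 5 to 7 with an array left out. Myogenic markers numbered 16, but 0 in the t-test (15 at an unadjusted *P* under 0.05), 4 with no filter and 9 to 16 with an array left out. Fibroblast markers numbered 2, but 0 in the t-test (2 at an unadjusted *P* under 0.05), 1 with no filter and 1 to 2 with an array left out.

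Differences between *DMD* and other members changed sign in 13 of 90 comparisons. Alternatives for the test, the filters, the minimum fold and the series value table use the same ratios, so these differences could not change there. Each change of sign came with normexp and loess, with a centring or with an array left out, so the count does not measure how stable the order of the members is. With normexp and loess they were 0.23 for *DAG1*, 0.17 for *SGCA*, 0.04 for *SGCB* and 0.11 for *SNTB1*; with both centrings 0.05, 0.04 and 0.01 for *DAG1*, *SGCA* and *SNTB1*. With an array left out they ranged from -0.24 to 0.07 for *DAG1* and *SGCA* and from -0.24 to 0.03 for *SNTB1*. The *SGCD* probes differed by 0.01 with normexp and loess, by 0.06 with both centrings and by -0.09 to 0.06 with an array left out. The cause of these changes was not tested. Signals near background limit *DTNA* and the dimmer *DMD* probe.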
